A study of Canis lupus familiaris with 8 samples.

Results

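Interferon response and antigen presentation genes were examined in dog heart after 2 weeks of methionine loading. The 8 genes chosen were TAP1, TAP2, CTSS, B2M, IRF1, MX1, ISG15 and CD74, and every probe set that the platform annotation assigns to one of these symbols alone was taken. This gave 12 of the 23913 probe sets on the array, covering 6 of the 6540 genes annotated on it: 5 probe sets for CTSS, 3 for B2M and 1 each for TAP1, TAP2, MX1 and ISG15. IRF1 and CD74 have no probe set under a single symbol and were not analysed here.

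The arrays came from 4 dogs with hyperhomocysteinemia (HHcy, written HHCY in the sample titles), a raised blood level of homocysteine, brought on by adding methionine to what they drank over 2 weeks, and from 4 control dogs. All 8 were male dogs of 23 to 27 kg, with 1 Affymetrix canine array per dog hybridised with total RNA of cardiac tissue. The labels name no heart chamber, age, breed or homocysteine level, and do not say what the controls drank. The study set out to find how chronic HHcy alters gene expression in the heart.

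Cells display protein fragments to T cells in MHC molecules, which are called DLA in the dog. For MHC class I, the immunoproteasome cuts cytosolic proteins, the TAP1 and TAP2 heterodimer pumps the peptides into the endoplasmic reticulum, and the heavy chain is loaded there together with its light chain B2M. For MHC class II, proteases of the endosome such as CTSS, cathepsin S, trim the invariant chain CD74 so that peptide can bind. Interferons induce much of this machinery, together with antiviral proteins such as the GTPase MX1 and the ubiquitin-like modifier ISG15. In heart tissue most myocytes show little MHC class II, and resident macrophages and endothelial cells are known to carry much of the antigen-presenting machinery.

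One array stood apart before any comparison. The 9 measured cardiomyocyte markers are mostly contractile genes and check the cardiac label. Their summed signal was 14996 on HHcy 6, while the remaining HHcy arrays had 180183 to 209971 and the controls 169923 to 263207. The mean log2 ratio of 3' to 5' signal of actin and GAPDH, a sign of RNA integrity, was 4.02 on HHcy 5, 6.31 on HHcy 6, 1.89 on HHcy 7 and 1.29 on HHcy 8. It was 1.43, -0.43, 1.51 and 1.09 on controls 1 to 4, so that control 2 had the lowest value. For each of the 6 genes, on its brightest probe set, the value is given with all arrays, without HHcy 6, and without HHcy 5 and HHcy 6.

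Signals are in the arbitrary units of the deposited table, and fold changes are differences of log2(signal + 24) between the group means, each given with its standard error (SE). Of the 12 probe sets, 10 passed the filter on dim signals. With limma and Benjamini-Hochberg adjustment over all 14301 tested probe sets, 0 of these 10 passed an adjusted p of 0.05, against 0.0979% of all tested probe sets. At an unadjusted p under 0.05 limma found 2 of the 10 higher and 0 lower, against 11.9% and 5.94% of all. The 4 HHcy signals were all above the 4 control signals on 2 of the 10, against 7.49% of all, and all below on 0 of the 10, against 3.89% of all. Over the 6 genes, each taken by its brightest probe set, the median log2 fold change was 0.61, beside 0.15 over all tested probe sets and 0.14 over the brightest probe sets of all 5015 tested genes. The members differed among themselves, as their values by dog show.

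**Figure D1:**
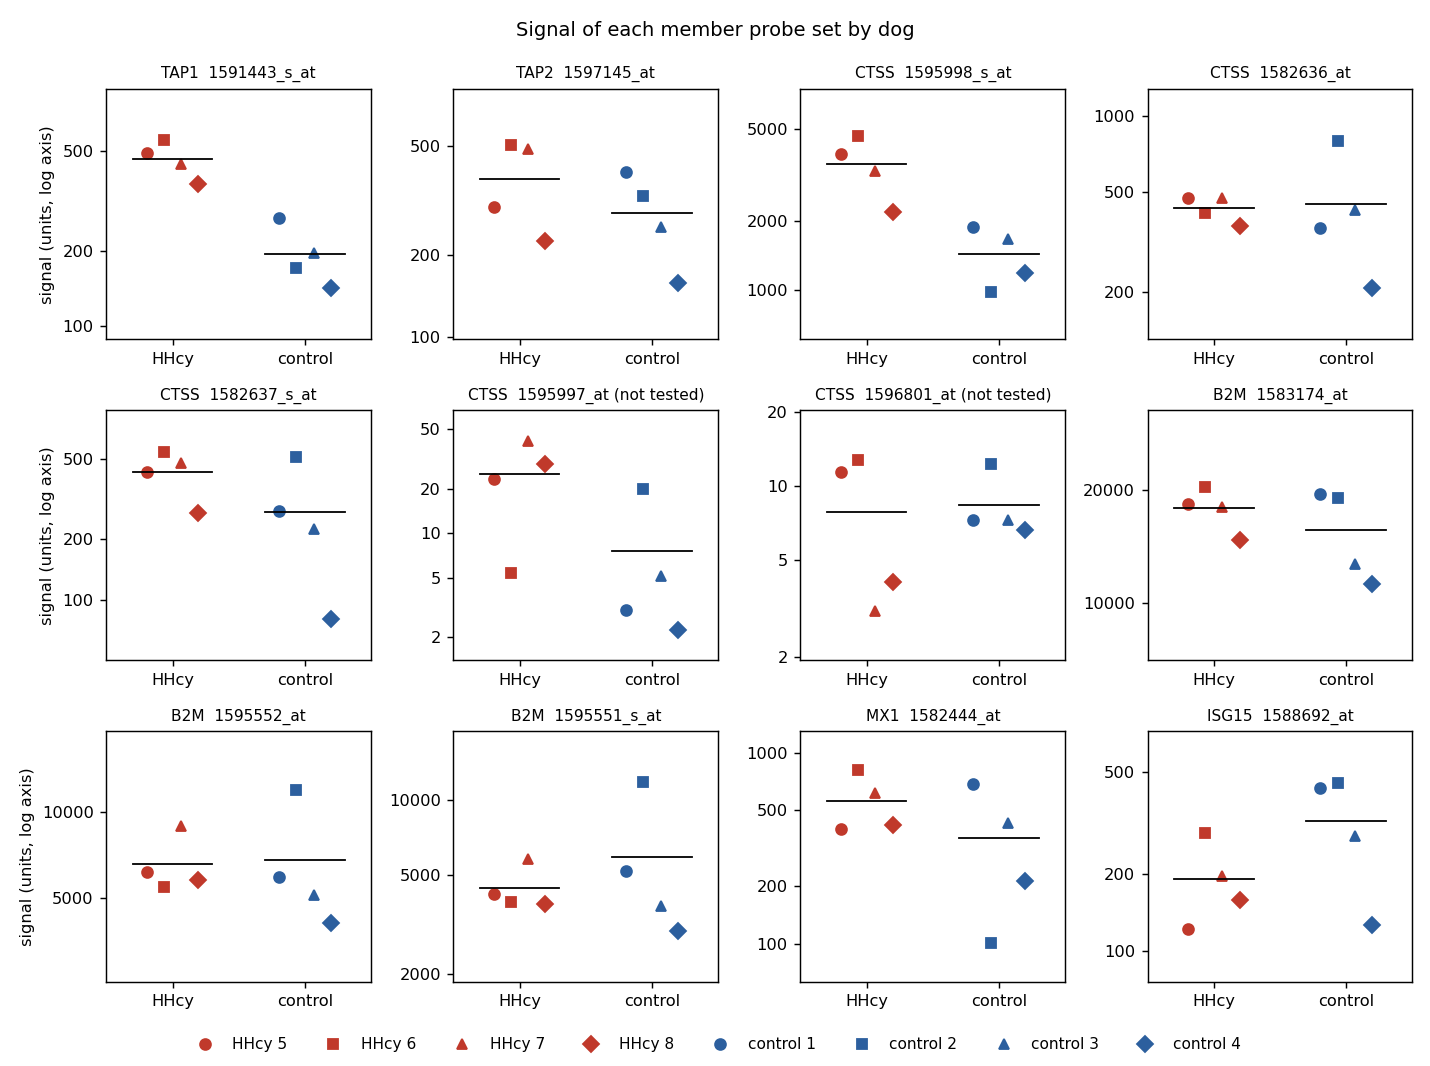
Signal of the 12 member probe sets by dog, on a log axis in arbitrary units, with HHcy dogs in red and control dogs in blue; the marker shape gives the dog and the bar the group mean. TAP1 and CTSS 1595998_s_at are the panels in which the HHcy dogs lie wholly above the controls (lowest HHcy signals of 369.6 and 2178, against highest control signals of 271 and 1889).

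Among the class I genes, the peptide transporter TAP1 (probe set 1591443_s_at) had signals of 492, 554, 446 and 369.6 on HHcy 5 to 8, against 271, 171, 196 and 141 on controls 1 to 4. All HHcy dogs were above all controls, with HHcy 6 the highest and control 4 the lowest. HHcy dogs averaged 465 ± 77.5 and control dogs 195 ± 55.4 (SD, n = 4 per group). The log2 fold change was 1.18 ± 0.27 (SE), a fold of 2.27, with a limma adjusted p of 0.121, and 5.35% of all tested probe sets had a log2 fold change at least as high. Without HHcy 6 the log2 fold change was 1.10 (limma adjusted p 0.174), and without HHcy 5 and HHcy 6 it was 1.01 (limma adjusted p 0.541). The suffix _s_at marks a probe set that can match several transcripts, so TAP1 rests on a single probe set of that kind.

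TAP2, the other subunit of the transporter (1597145_at), had signals of 299, 502, 485 and 225 on HHcy 5 to 8, against 402, 327, 252 and 158 on controls 1 to 4. The groups overlapped, with HHcy 6 and HHcy 7 above all controls and HHcy 5 and HHcy 8 within them. The log2 fold change was 0.38 ± 0.35 (SE), with a 95% interval of -0.39 to 1.15 and a limma adjusted p of 0.570. It was 0.23 without HHcy 6 and 0.27 without HHcy 5 and HHcy 6. Leaving out 1 other array gave 0.24 without HHcy 7, 0.59 without HHcy 8 and 0.15 without control 4. Median scaling gave 0.048, beside a median of -0.18 over all tested probe sets under that scaling. Within each array, log2 TAP1 minus log2 TAP2 was 0.67, 0.13, -0.11 and 0.66 on HHcy 5 to 8, against -0.53, -0.85, -0.33 and -0.13 on controls 1 to 4. The HHcy dogs thus all had a higher TAP1 to TAP2 ratio than the controls, by 0.80 on average, although HHcy 7 at -0.11 lay close to control 4 at -0.13. This difference between the subunits was computed after their values were seen and was not tested.

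B2M, the invariant light chain of class I, overlapped between the groups on each of its 3 probe sets. On its brightest probe set (1583174_at) the signals were 18379, 20374, 17969 and 14652 on HHcy 5 to 8, against 19468, 19033, 12702 and 11219 on controls 1 to 4. The log2 fold change was 0.22 ± 0.25 (SE), with a 95% interval of -0.32 to 0.77. It was 0.16 without HHcy 6, 0.098 without HHcy 5 and HHcy 6, and -0.14 with median scaling (-0.18 over all tested probe sets). It was 0.34 without control 1, 0.14 without control 3 and 0.080 without control 4. The other 2 B2M probe sets had log2 fold changes of 0.05 ± 0.33 and -0.23 ± 0.38 (SE), and the lowest limma adjusted p of the 3 was 0.642.

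The probe sets of B2M disagreed most on control 2. On 1595552_at that dog had a signal of 11926, where the HHcy dogs had 5439 to 8877 and the remaining controls 4068 to 5906. On 1595551_s_at it had 11757, where the HHcy dogs had 3812 to 5782 and the remaining controls 2987 to 5189. On the brightest B2M probe set control 2 was not apart, at 19033. Without control 2 the log2 fold change of 1595551_s_at turned to 0.17. Control 2 is the array with the lowest 3' to 5' ratio, and the part of that ratio in these values was not tested.

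CTSS, the endosomal protease, had the highest log2 fold change among the members on its brightest probe set. The signals of 1595998_s_at were 3926, 4686, 3294 and 2178 on HHcy 5 to 8, against 1889, 975, 1668 and 1181 on controls 1 to 4. Every HHcy dog lay above every control, though HHcy 8 exceeded control 1 by little. HHcy dogs averaged 3521 ± 1061 and control dogs 1428 ± 423 (SD, n = 4 per group). The log2 fold change was 1.28 ± 0.30 (SE), a fold of 2.43, with a limma adjusted p of 0.126. It was 1.13 without HHcy 6 (limma adjusted p 0.158) and 0.94 without HHcy 5 and HHcy 6 (limma adjusted p 0.541).

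The other CTSS probe sets did not show the same separation. On 1582637_s_at the signals were 429, 543, 476 and 269 on HHcy 5 to 8, against 276, 511, 226 and 80.8 on controls 1 to 4, with a log2 fold change of 0.79 ± 0.44 (SE, limma adjusted p 0.363). On 1582636_at they were 472, 409, 472 and 364 on HHcy 5 to 8, against 357, 796, 421 and 208 on controls 1 to 4, with 0.09 ± 0.35 (SE, limma adjusted p 0.909). Control 2 was the highest control on these 2 probe sets and the lowest control on the brightest one. The probe sets 1595997_at and 1596801_at were too dim to test, with signals of 5.44 to 42.1 and 3.09 to 12.7 in HHcy, against 2.23 to 19.9 and 6.58 to 12.3 in controls.

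**Figure D2:**
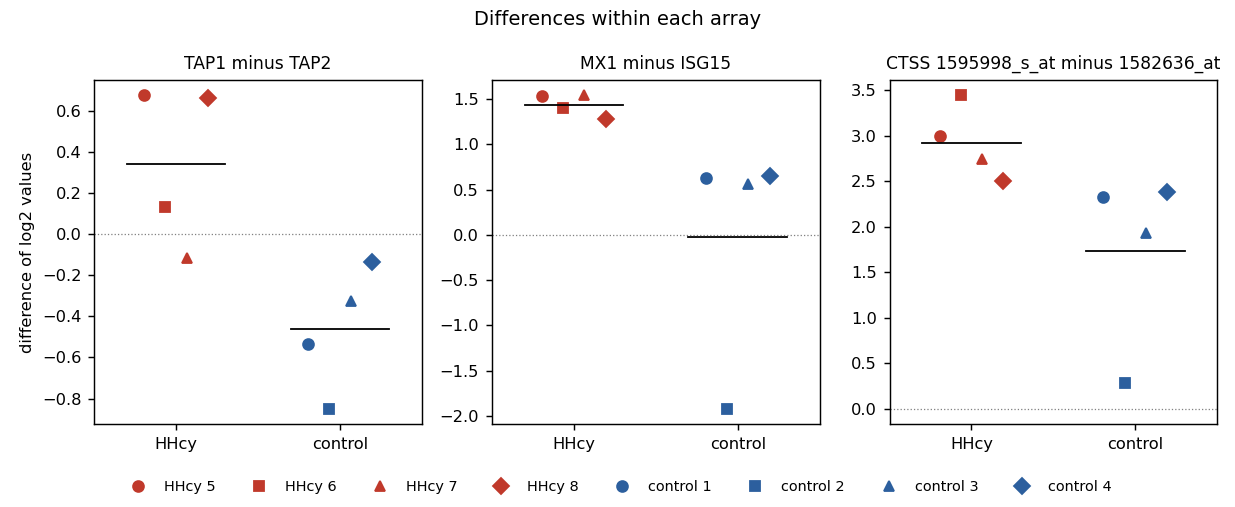
Differences of log2 values within each array for TAP1 minus TAP2, MX1 minus ISG15, and CTSS 1595998_s_at minus 1582636_at, with HHcy dogs in red, control dogs in blue and bars at the group means. In these 3 pairs the HHcy dogs lie above the controls and control 2 is lowest. The pair of CTSS 1595998_s_at with 1582637_s_at and the B2M pairs, not drawn, overlap between the groups.

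The interferon-induced members differed in sign, and neither passed: the log2 fold change was above 0 for MX1 and below 0 for ISG15. MX1, an antiviral GTPase (1582444_at), had signals of 397, 807, 617 and 419 on HHcy 5 to 8, against 683, 102, 429 and 213 on controls 1 to 4. The groups overlapped, and control 1 was above 3 of the HHcy dogs. The log2 fold change was 0.84 ± 0.48 (SE), with a 95% interval of -0.21 to 1.89 and a limma adjusted p of 0.370, and it was 0.41 without control 2 and 1.24 without control 1. It was 0.66 without HHcy 6 and 0.77 without HHcy 5 and HHcy 6.

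ISG15, a ubiquitin-like protein that is attached to other proteins after interferon (1588692_at), had signals of 121, 291, 197 and 158 on HHcy 5 to 8, against 434, 452, 282.5 and 127 on controls 1 to 4. It was the only one of the 6 genes with a log2 fold change below 0 on its brightest probe set, at -0.61 ± 0.40 (SE), with a 95% interval of -1.49 to 0.27 and a limma adjusted p of 0.430. It was -0.82 without HHcy 6, -0.66 without HHcy 5 and HHcy 6, and -0.97 without control 4. Control 4, at 127, lay among the HHcy dogs. Within each array, log2 MX1 minus log2 ISG15 was 1.54, 1.40, 1.54 and 1.28 on HHcy 5 to 8, against 0.63, -1.92, 0.56 and 0.65 on controls 1 to 4. This difference was likewise computed after the values were seen and was not tested.

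Some dogs were low or high across members. HHcy 8 was the lowest HHcy array on 7 of the 10 tested probe sets, and control 4 was the lowest control on 8 of the 10. HHcy 6 was the highest HHcy array for all 6 genes on their brightest probe sets, and control 1 was the highest control for 5 of the 6. The median deviation of the 6 genes from the control mean was 0.35, 1.12, 0.91 and 0.23 on HHcy 5 to 8, against 0.50, 0.059, -0.0026 and -0.42 on controls 1 to 4, on the log2 scale. Control 1 therefore lay above HHcy 5 and HHcy 8 on this summary.

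TAP1 and CTSS varied together across the dogs, with a Pearson r of 0.96 over the 8 arrays on the log2 scale and of 0.86 once the group means were subtracted. TAP1 and TAP2 had 0.64 and 0.77, TAP2 and B2M 0.87 and 0.85, and MX1 and ISG15 -0.03 and 0.28. The share of genes with an r as high over the 8 arrays was 0.179% for TAP1 and CTSS and 19.98% for TAP1 and TAP2. It was 0.199% for TAP2 and B2M and 60.81% for MX1 and ISG15. ISG15 had 0.51 and 0.86 with TAP2, and 0.49 and 0.83 with B2M. It had -0.22 and 0.63 with TAP1, and -0.29 and 0.26 with CTSS. These values share arrays, RNA quality and scaling, and describe 8 points only.

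Other genes of class I presentation were taken from a list of 31 symbols, of which 12 were on the array and 10 were tested. With limma 0 of the 10 reached an adjusted p of 0.05, while 2 had an unadjusted p under 0.05 in the higher direction, against 11.6% of all tested genes. Those 2 were subunits of the immunoproteasome. PSMB8 had signals of 1119.9, 1148, 1669.9 and 735 on HHcy 5 to 8, against 732, 526, 652 and 541 on controls 1 to 4, with a log2 fold change of 0.86 ± 0.28 (SE, limma adjusted p 0.180). PSMB9 had 627, 1929, 1613 and 1245 on HHcy 5 to 8, against 892, 483, 603 and 861 on controls 1 to 4, with 0.84 ± 0.36 (SE, limma adjusted p 0.256). The HHcy dogs lay above the controls for PSMB8 by a narrow margin, while HHcy 5 fell within the controls for PSMB9.

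In the RefSeq table of the assembly UU_Cfam_GSD_1.0, TAP2, PSMB8, TAP1 and PSMB9 follow each other without another protein-coding gene between them. Their log2 fold changes in that order were 0.38, 0.86, 1.18 and 0.84. A further PSMB8 probe set, 1585408_at, had 0.91 (limma adjusted p 0.162), and the remaining one, 1586908_s_at, had 0.31 (limma adjusted p 0.619).

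FCGRT, the neonatal Fc receptor and a relative of the class I heavy chains, had signals of 1902, 5504, 1880 and 1074 on HHcy 5 to 8. The controls had 402 to 2268, and only HHcy 6 lay above all of them. The log2 fold change of FCGRT was close to those of PSMB8 and PSMB9 with a wider error, at 0.86 ± 0.56 (SE, limma adjusted p 0.428). PDIA3 of the same list went the other way, at -0.552 ± 0.54 (SE, limma adjusted p 0.595). Both FCGRT and PDIA3 are named here after their values were seen. PSME2, an interferon-induced subunit of the proteasome activator PA28, had a log2 fold change of 0.52 ± 0.25 (SE). PSME3, the gamma form of that activator, had the lowest of the list at -0.553 ± 0.53 (SE), with a signal of 124 on HHcy 6, and 0.09 without that array. The heavy chains DLA88 and DLA-79 had log2 fold changes of 0.08 ± 0.23 and 0.09 ± 0.51 (SE) and turned below 0 with median scaling. The median over the 10 tested genes was 0.12, which turned to -0.24 with median scaling of the arrays and was 0.41 in a fit that held each array's 3'/5' ratio. Median scaling also moved the median over all tested probe sets, from 0.15 to -0.18. The DLA chains are named here after their values were seen.

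Of 36 class II symbols, 17 were on the array and 16 were tested. With limma 0 of the 16 passed, while 5 were higher and 0 lower at an unadjusted p under 0.05, against 11.6% and 4.73% of all tested genes. The median log2 fold change was 0.38, and it was 0.21 without HHcy 7 and 0.27 without control 4. With median scaling it was 0.024, beside -0.18 over all tested probe sets. IFI30, the thiol reductase that unfolds antigens in endosomes, had signals of 3325 to 6359 in HHcy and 926 to 2912 in controls, with a log2 fold change of 1.39 ± 0.36 (SE, limma adjusted p 0.141). CTSH, another endosomal cathepsin, had 364 to 770.1 in HHcy and 169 to 355 in controls, with 1.24 ± 0.33 (SE, limma adjusted p 0.144). The class II alpha chain DLA-DQA1 had 1263 to 4582 in HHcy and 437 to 1239.8 in controls, with 1.36 ± 0.43 (SE, limma adjusted p 0.171). These 3 were named for having the lowest p of the list. The HHcy signals were all above the control signals in these 3 and in DLA-DRA. That made 4 of the 16 tested genes, against 8.30% of all tested genes.

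The class II list was not uniform. Its lowest log2 fold change was that of RFXANK, a subunit of the RFX complex that binds MHC class II promoters, at -0.54 ± 0.33 (SE, limma adjusted p 0.401). The other class II chains DLA-DRA, DLA-DQB1 and HLA-DRB1, spelled as the annotation has them, had 0.59 ± 0.25, 0.82 ± 0.31 and 0.42 ± 0.28 (SE) on their brightest probe sets. The probe sets of each of these 3 genes disagreed in sign. The other tested probe sets had 0.50 and -0.13 for DLA-DRA, -0.34 for DLA-DQB1, and 1.34 and -0.38 for HLA-DRB1. A second IFI30 probe set had 0.15 and a second DLA-DQA1 probe set 0.59.

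**Figure D3:**
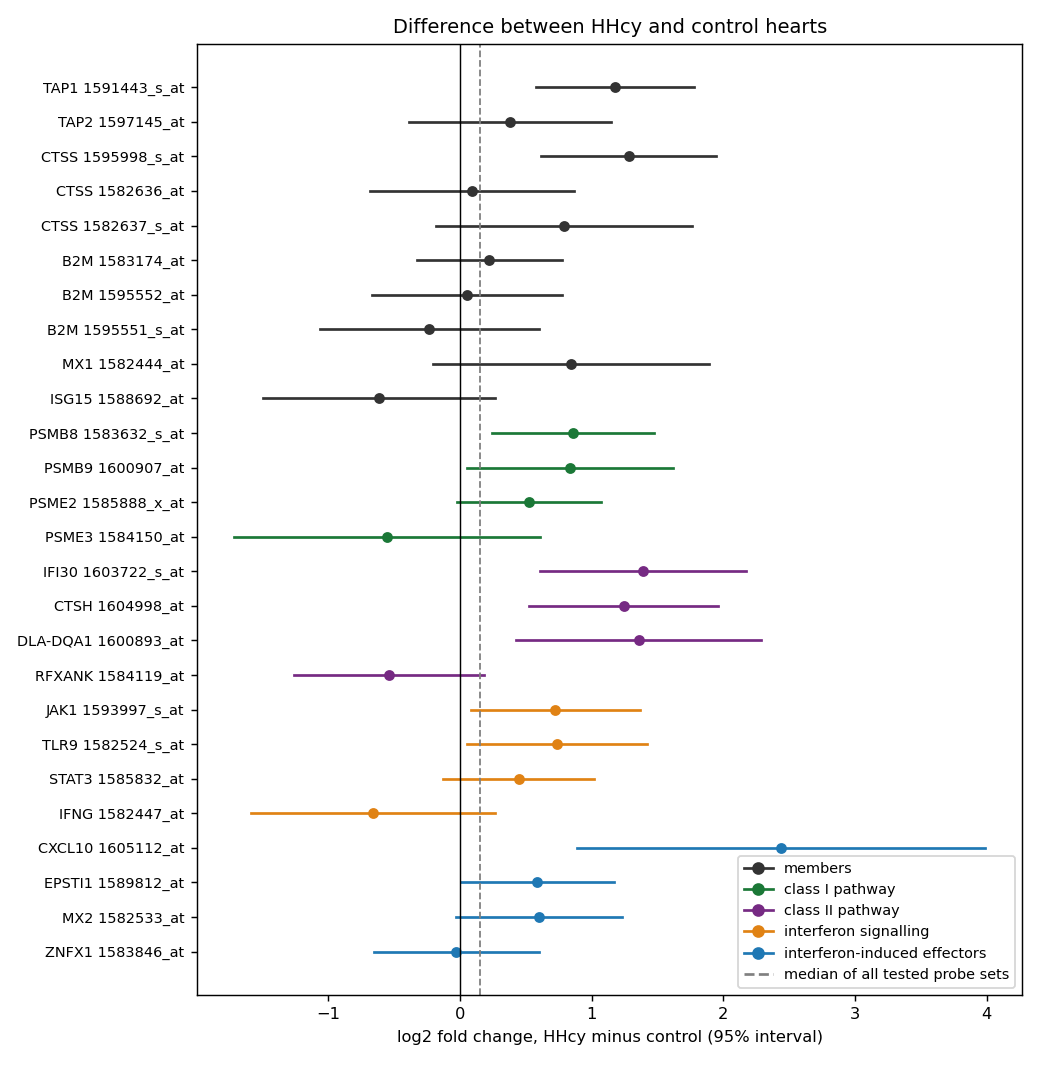
Log2 fold change (HHcy minus control) with its 95% interval for the 10 tested member probe sets and for the named pathway genes, coloured by list; the dashed line is the median of all tested probe sets at 0.15. The intervals of TAP1 and CTSS 1595998_s_at run from 0.58 to 1.78 and from 0.61 to 1.95, and those of the other member probe sets include 0.

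Of 50 symbols for interferons, their receptors, kinases and transcription factors, 12 were on the array and all 12 were tested. With limma 0 passed and 2 were higher at an unadjusted p under 0.05, a share near the 11.6% of all tested genes. These were the receptor kinase JAK1 (0.73 ± 0.29, SE, limma adjusted p 0.240) and TLR9, a sensor of unmethylated DNA (0.74 ± 0.31, SE, limma adjusted p 0.253). The probe sets of both genes differed in sign. The other tested TLR9 probe sets had -0.028 and -0.080. For JAK1, 1586899_at had signals of 399 to 498 in HHcy and 722 to 1057 in controls, a log2 fold change of -0.84 (limma adjusted p 0.151). The remaining tested JAK1 probe sets, 1591211_s_at and 1593996_at, had 0.46 (limma adjusted p 0.390) and 0.042 (limma adjusted p 0.949). STAT3, a transcription factor downstream of JAK kinases, had 0.45 ± 0.26 (SE). IFNG, the gene of interferon gamma itself, had the lowest value of the list, with signals of 26.1 to 104 in HHcy and 70.1 to 178 in controls, and -0.66 ± 0.42 (SE, limma adjusted p 0.424). The median over the list was 0.37, and it was 0.22 without control 3 and 0.17 without HHcy 5 and HHcy 6. With quantile and median scaling it was 0.22 and 0.0078, beside 0.011 and -0.18 over all tested probe sets.

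Of 74 interferon-induced effector symbols, 16 were on the array and 11 were tested, with a median log2 fold change of 0.58. With limma 0 passed and 2 were higher at an unadjusted p under 0.05, beside 11.6% of all tested genes. CXCL10, a chemokine that draws T cells, had signals of 4004, 425, 2214 and 531 on HHcy 5 to 8, against 352, 423, 147 and 66.4 on controls 1 to 4. The spread within HHcy was wide, and HHcy 6 at 425 barely exceeded control 2 at 423. The log2 fold change was 2.44 ± 0.71 (SE, limma adjusted p 0.158), with 0.217% of all tested probe sets at least as high. EPSTI1 and MX2, a relative of MX1, had 0.59 ± 0.27 and 0.60 ± 0.29 (SE), and ZNFX1 had the lowest value at -0.026 ± 0.29 (SE).

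Over the 4 lists together, 0 of 49 tested genes passed with limma, 11 were higher and 0 lower at an unadjusted p under 0.05, against 11.6% and 4.73% of all tested genes. For 8 of the 49 the HHcy signals were all above the control signals, against 8.30% of all tested genes, and for 0 they were all below, against 3.53%. The median log2 fold change over the 49 was 0.40, beside 0.14 over all tested genes. The lists were chosen with earlier results of these data known, so these counts describe them and are no independent evidence of a direction.

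**Figure D4:**
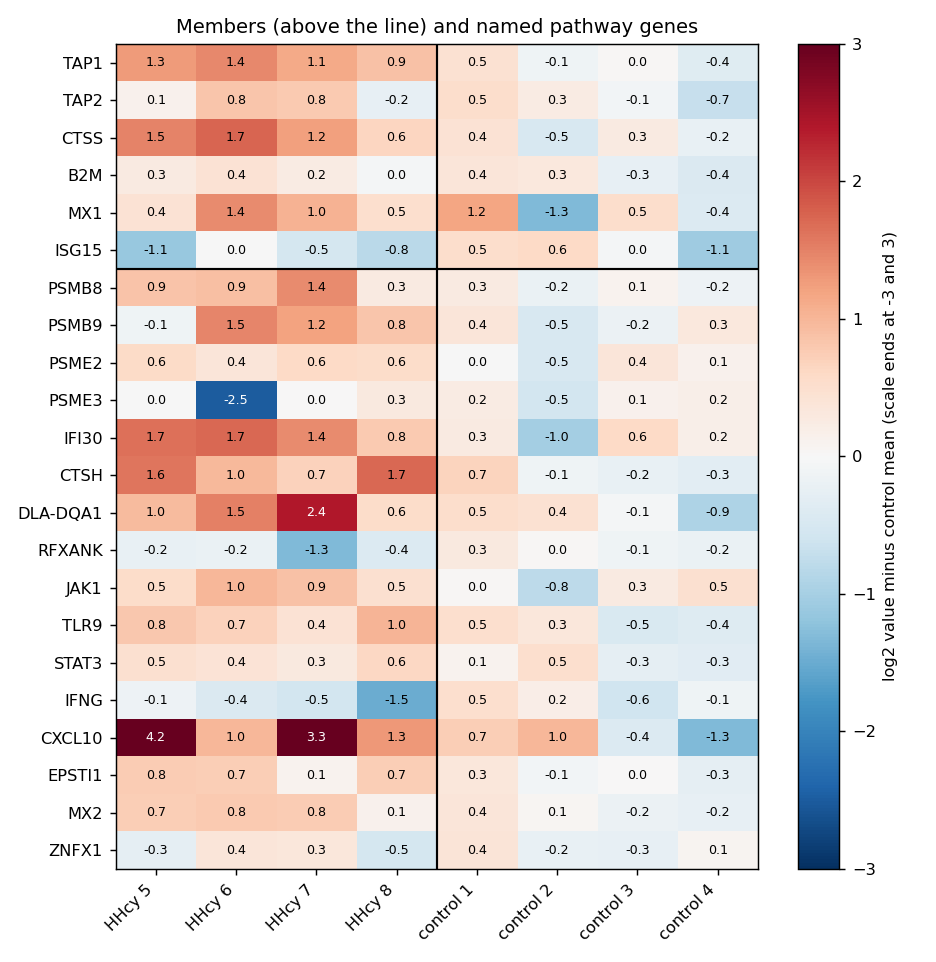
Log2 value minus the control mean, by dog, for the 6 member genes (above the line) and the 16 named pathway genes, with HHcy arrays left of the controls; colours end at -3 and 3. TAP1, CTSS and IFI30 are above the controls on each HHcy array, while TAP2, B2M, MX1 and ISG15 mix with them.

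Marker genes of other cell types were read on the same arrays. Macrophage markers, 11 of 14 of which were on the array, had a summed signal of 12232 to 23321.5 in HHcy and 6402 to 9162 in controls. None of the 11 was at 0, 0 passed with limma, and 9 were higher at an unadjusted p under 0.05, against 11.6% of all tested genes. The order of the HHcy dogs by this sum, HHcy 6, 5, 7 and 8 from high to low, was also their order by TAP1, by CTSS and by B2M. B2M overlapped between the groups. The mean log2 3' to 5' ratio gave the HHcy dogs that order too, at 6.31, 4.02, 1.89 and 1.29. On the controls the ratio ran 3, 1, 4 and 2 from high to low and matched none of TAP1, CTSS and B2M. Among the controls the sum ran 3, 1, 2 and 4 from high to low and matched none of these genes: TAP1 ran 1, 3, 2 and 4, CTSS 1, 3, 4 and 2, and B2M 1, 2, 3 and 4. In the HHcy dogs the order by TAP2, MX1 and ISG15 differed, with HHcy 7 in the second place. Fewer or more cells of a type and less or more RNA per cell cannot be told apart in such bulk samples. In a fit that also held each array's 3'/5' ratio, the log2 fold changes of TAP1 and CTSS were 0.92 and 0.75, beside 1.18 and 1.28 without it. The part of macrophages in the values of TAP1 and CTSS was not tested, and that of RNA integrity was not tested beyond this fit.

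**Figure D5:**
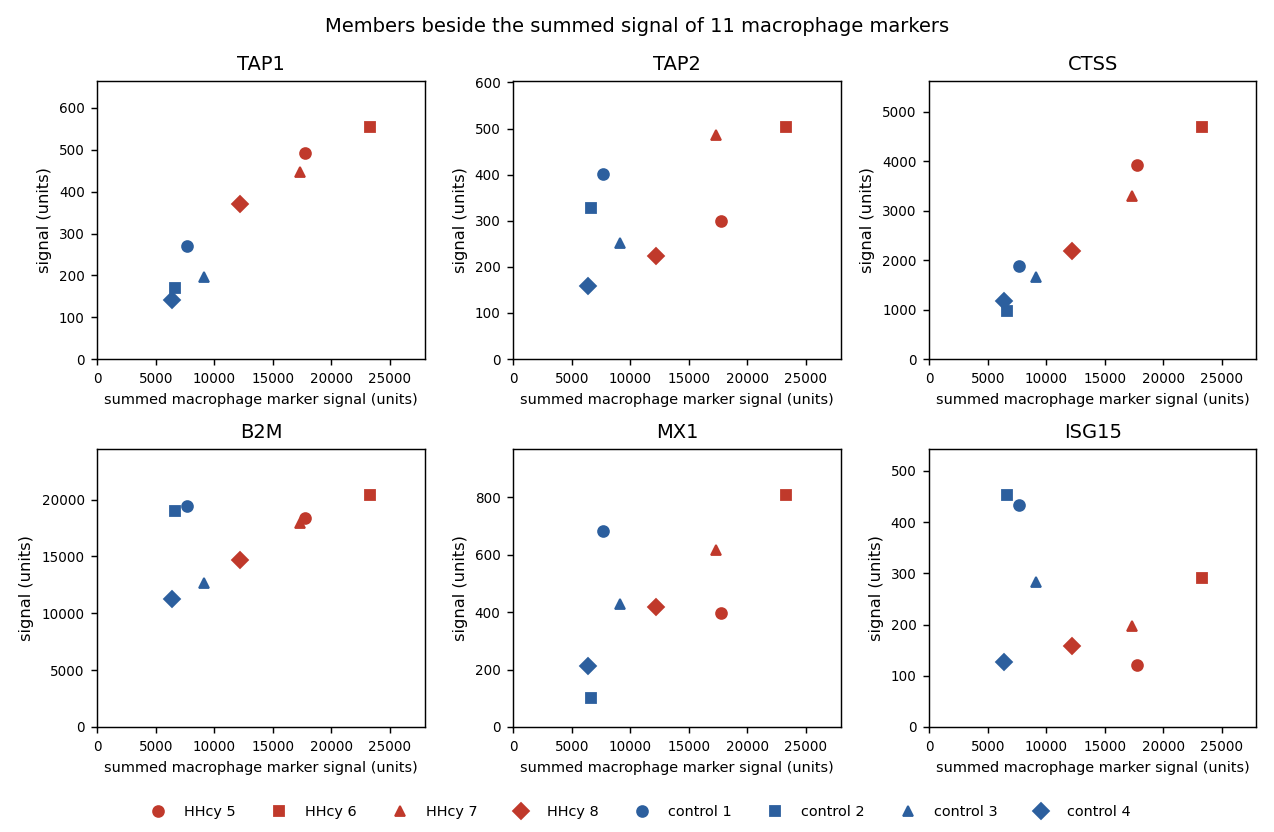
Signal of each member gene on its brightest probe set (vertical axis) beside the summed signal of 11 macrophage markers (horizontal axis), 1 point per dog, HHcy in red and control in blue, all in arbitrary units. Among the HHcy dogs the points of TAP1, CTSS and B2M follow the order of the marker sum, and among the controls they do not. For TAP2, B2M, MX1 and ISG15 the signals of the groups overlap.

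The other immune cell lists were thinly represented. T cell markers, 5 of 11 on the array with CD8A and LCK too dim to test, summed to 719 to 1195 in HHcy and 268 to 670.5 in controls. CD4 alone had 209 to 779 in HHcy and 52.1 to 217.5 in controls. Of the 3 tested T cell markers 1, CD4, was higher at an unadjusted limma p under 0.05, against 11.6% of all tested genes. None passed with limma. CD3D and CD3E had log2 fold changes of 0.56 ± 0.32 and 0.38 ± 0.52 (SE). The NK cell list had 1 of 9 markers on the array, with 23.5 to 334 in HHcy and 42.3 to 229 in controls, and dendritic cells had 0 of 10. B cell markers (2 of 9, PAX5 too dim to test) summed to 1037 to 3795 in HHcy and 2946 to 3623 in controls, and neutrophil markers (2 of 9, both too dim) to 25.4 to 192 in HHcy and 72.4 to 152 in controls. Endothelial markers (5 of 10, TEK too dim) summed to 22969 to 32723 in HHcy and 21487 to 29349 in controls. Fibroblast markers (5 of 8, POSTN too dim) summed to 17705 to 43002 in HHcy and 11776 to 17684 in controls. These sums did not overlap, but HHcy 8 at 17705 barely exceeded control 3 at 17684. Of the 4 tested fibroblast markers 3 were higher at an unadjusted p under 0.05, against 11.6% of all tested genes, and 0 passed with limma. The median log2 fold change was 1.17, while COL3A1 went the other way at -0.48 ± 0.60 (SE). The part of these cell types in the results was not tested.

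The genes whose pattern over the 8 arrays was most like each member were sought among the brightest probe sets of 5014 other genes, by Pearson r of log2 values. For TAP1 they were PPIC, a cyclophilin of the secretory pathway (0.98), TIMP1, a metalloproteinase inhibitor (0.98), and CD48, a surface protein of leukocytes (0.98). For CTSS they were PHF1 (0.98), the ribosomal protein RPL12 (0.98) and CCDC32 (0.98). For TAP2 they were the tubulin TUBA1C, THSD1 and the matrix protein THBS1 (each 0.94). For B2M they were the coactivator PPARGC1B (0.95), the receptor ERBB4 (0.94) and SAR1A, a GTPase of export from the endoplasmic reticulum (0.94).

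For MX1 the nearest were progranulin GRN (0.96), the methyltransferase TPMT (0.96) and the chromatin remodelling subunit SMARCC2 (0.95). For ISG15 they were the gelatinase MMP2 (0.96), OSBPL2 (0.96) and CWC25 (0.94). With the group means subtracted, the r was 0.97 for TAP1 with PPIC, 0.87 with TIMP1 and 0.96 with CD48. None of the 18 nearest genes was itself one of the members or of the pathway lists. The highest of 5014 values over 8 arrays is high by selection, so these are descriptions.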

How the data were processed

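Cardiac RNA of 4 HHcy and 4 control dogs was measured on 1 array each. The authors deposited linear intensities per probe set, computed with MAS5 per the submitters' processing notes. Their trimmed means, with 2% left out at each end, lay at 500.08 to 500.10 units, so no scaling was added. Detection calls were not used here.

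A pseudocount of 24, the rounded 20th percentile of the table, was added before log2, which understates folds of dim probe sets. The 77 control probe sets and the dimmest 40% by mean log2 value were left out. Groups, taken from the titles, were tested in limma 3.58.1 under R 4.3.3 (lmFit, eBayes with an intensity trend, Benjamini-Hochberg at 0.05). On simulated data this procedure recovered 8% of log2 changes of 1, 76% of 2, 88% of 3 and 100% of 4. A gene that did not pass is therefore not shown to be unchanged, least of all near a log2 fold change of 1. The p-values set the difference between groups against the spread among arrays within a group, which eBayes moderates over all tested probe sets. With 1 array per dog that spread holds dog, RNA and array differences together, and 4 arrays a group limit the precision.

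A single symbol was annotated for 10549 probe sets, while 138 had several and 13226 had none. The gene identifiers of B2M and ISG15 are not in the RefSeq table, where only their symbols matched. No coordinates are given, and only the order of the genes around TAP1 was read from the assembly UU_Cfam_GSD_1.0.

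Members, lists and alternatives were chosen with earlier results of these data known. All member probe sets are named, and from each pathway list the 3 genes of lowest p (or up to 4 that passed) and the 1 of lowest log2 fold change, by brightest tested probe set. The 3 most similar genes are named for each member. Alternatives were other scaling, pseudocounts, filters, variance models, array weights, 1 probe set per gene, a 3'/5' covariate, and leaving out arrays.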

Additional observations from a re-analysis of the deposited data

Results flagged for a closer look

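Of 82 groups of 4 arrays checked, 9 held an array far from the other 3 on the log2 scale, and chance alone gives about 1 in 20. Among the members, CTSS 1596801_at had 12.3 on control 2, against 6.58 to 7.25 on the other controls, all under the pseudocount of 24. In the pathway lists PSME3 had 124 on HHcy 6, against 792 to 983 on the other HHcy arrays, and 543 on control 2, against 877 to 957 on the other controls. EPSTI1 had 350 on HHcy 7, against 555 to 568, and MX2 had 175 on HHcy 8, against 282 to 291. DLA-79 had 1969 on HHcy 7, against 621 to 694. Of genes too dim to test, HSPA5 had 94.7 on control 4, against 30.8 to 36.9, OAS2 had 8.21 on HHcy 6, against 57.8 to 72.2, and PARP12 had 124 on control 1, against 9.89 to 17.3. What sets these arrays apart was not tested.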

How the results depend on the processing

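Over 20 alternatives no member probe set and no gene of the 4 pathway lists passed. TAP1 ran from 0.85 to 1.34 (limma adjusted p 0.0626 to 0.875) and CTSS 1595998_s_at from 0.75 to 1.49 (limma adjusted p 0.0706 to 0.906), lowest in p with array weights. In a fit that also held each array's 3'/5' ratio (the covariate), TAP1 had 0.92, CTSS 0.75, TAP2 0.16 and MX1 0.23, and the median of the 6 genes was 0.19. MX1 ran from 0.23 to 1.24 and ISG15 from -0.97 to -0.42. The 14 probe sets passing overall became 7 with quantile scaling, 22 with median scaling, 9 with the dimmest 60% left out, 76 with array weights, 8 with 1 probe set per gene, 5 with the covariate and 5 without HHcy 5 and HHcy 6, and 3 to 31 without 1 array (31 without HHcy 8, 5 without HHcy 5, 9 without control 1, 3 without control 2, 4 without control 3 and 3 without control 4). At an unadjusted p under 0.05 the split of 1700 higher and 849 lower became 1152 and 1160 with quantile scaling and 674 and 1926 with median scaling, which moved the median of all probe sets to -0.18.

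Signs turned for 8 of the named probe sets. With median scaling CTSS 1582636_at had -0.25, B2M 1583174_at -0.14, B2M 1595552_at -0.31, DLA88 -0.28 and DLA-79 -0.27, and CTSS 1582636_at had -0.064 with quantile scaling. B2M 1595551_s_at had 0.11 with array weights and 0.14 with the covariate, DLA-79 -0.16 with array weights, and PSME3 0.40 with the covariate and 0.15 without HHcy 5 and HHcy 6. Leaving out 1 array gave -0.20 to 0.41 for CTSS 1582636_at, -0.15 to 0.37 for B2M 1595552_at and -0.49 to 0.17 for B2M 1595551_s_at. It gave -0.83 to 0.092 for PSME3, -0.15 to 0.14 for ZNFX1, -0.043 to 0.18 for DLA88 and -0.33 to 0.52 for DLA-79. The cause was not tested. No paired analysis was possible because HHcy dogs are numbered 5 to 8 and control dogs 1 to 4, with no number in common. Depth of signal limits the 2 dim CTSS probe sets, whose values lie near or under the pseudocount.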

Other observations

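Of the interferon-induced and presentation genes on the array, 8 were too dim to test, and several are classic interferon targets. IFIT3, an antiviral RNA-binding protein, had signals of 30.4, 39.5, 45.1 and 25.8 on HHcy 5 to 8, against 119.5, 83.4, 19.4 and 18.1 on controls 1 to 4. OAS2, which makes the activator of RNase L, had 59.8, 8.21, 57.8 and 72.2 on HHcy 5 to 8, against 50.7, 124, 93.8 and 59.1 on controls 1 to 4. The groups overlapped in both, and neither gene passed the filter on dim signals, so neither was tested. TRIM14, PARP12, STAT4, CALR, HSPA5 and DLA-DOA were the others, and the groups overlapped in each. The raw log2 differences (HHcy minus control), none of them tested, went both ways. They were -0.31 for IFIT3, -0.59 for OAS2, 0.88 for TRIM14, 0.74 for STAT4 and -0.16 for PARP12. For CALR, HSPA5 and DLA-DOA they were -0.37, -0.039 and -0.18.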
